A study of Mus musculus with 2 samples.

Results

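Cxcl1, Cxcl2, Cxcl3 and Cxcl5 are the CXC chemokines that draw neutrophils in the mouse, and their transcripts were followed through single cells of the palatal gingiva. The 4 members were chosen by gene symbol out of 32285 genes in the count matrices, and all 4 were measured in both libraries. The tissue came from female C57Bl6/J mice of 8 to 12 weeks, which received 3 µl of a 1 µg/ml ligand on the palate under an oral appliance for 1 hour. The ligand was either unmethylated CpG ODN, which activates TLR9, or *P. gingivalis* LPS, which activates TLR2 and TLR4. Gingiva was taken at day 4, digested with collagenase II and then trypsin, and cells of 4 mice per ligand were combined in equal numbers into 1 library. The model therefore shows the response to 1 ligand application in unligated gingiva, with the animals of a ligand pooled. An untreated library was not analysed here, so every ligand comparison is CpG ODN against LPS. With 1 library per ligand there is no replicate spread and no test: intervals are 95% intervals that cover counting error only, and say nothing about mice.

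The members are small secreted proteins that bind the receptor Cxcr2, which neutrophils carry on their surface, and that are held on tissue surfaces by heparan sulfate chains such as those on syndecans. Keratinocytes, fibroblasts and vessel cells switch their genes on quickly after Toll-like receptor, Il1, Tnf or Il17 signals, largely through NF-kB, and their messages are short lived because decay factors such as Zfp36 and Zc3h12a bind them. Gingiva is known for a constant flow of neutrophils towards the tooth surface, where the epithelium facing the tooth makes the secreted protein Odam.

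The 4 genes lie side by side on the plus strand of chromosome 5 within 146.6 kb of the GRCm38 build. Cxcl5 (ENSMUSG00000029371) is at chr5:90759360-90761624, Cxcl3 (ENSMUSG00000029379) at chr5:90786103-90789600, Cxcl1 (ENSMUSG00000029380) at chr5:90891241-90893115 and Cxcl2 (ENSMUSG00000058427) at chr5:90903871-90905938. Ppbp, which encodes another Cxcr2 ligand, sits between Cxcl5 and Cxcl3 at chr5:90768518-90770063. No promoter sequence of Cxcl5 was available, so its promoter was not examined. Those of the other 3 members are shown, and they carry the same NF-kB stretch close to the gene start. Each is a run of 130 bases that ends just before the RefSeq start of Cxcl3 or the annotated gene start of Cxcl1 and Cxcl2, from RefSeq on GRCm38.p6, plus strand, at chr5:90785971-90786100 for Cxcl3, chr5:90891111-90891240 for Cxcl1 and chr5:90903741-90903870 for Cxcl2. Capitals mark the 11 bases that match the NF-kB consensus on either strand, and in Cxcl3 also the TATA box letters TATAAA.
Cxcl3: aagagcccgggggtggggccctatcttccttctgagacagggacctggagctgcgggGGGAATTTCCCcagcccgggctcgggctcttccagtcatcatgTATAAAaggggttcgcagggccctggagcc
Cxcl1: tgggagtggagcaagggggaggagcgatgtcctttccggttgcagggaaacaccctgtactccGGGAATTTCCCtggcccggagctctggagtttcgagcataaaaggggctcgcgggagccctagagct
Cxcl2: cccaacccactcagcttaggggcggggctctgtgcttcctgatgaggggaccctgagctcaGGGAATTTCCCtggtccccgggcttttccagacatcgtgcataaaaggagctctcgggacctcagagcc

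The stretch GGGAATTTCCC was identical in the 3 promoters and began 75 bases before the annotated gene start of Cxcl3, 67 before that of Cxcl1 and 69 before that of Cxcl2. Counted from the RefSeq starts the distances were 73, 71 and 97 bases, so that of Cxcl2 depends on the start used. An NF-kB consensus match on either strand was held by 8.46% of all 32851 RefSeq promoter windows. The AP-1 letters TGANTCA were not in the windows of these 3 genes and were in 7.81% of all windows, and the TATA box letters were in 13.6%. The transcripts of Cxcl2 and Cxcl3 share an exact run of 110 bases, so reads from it cannot be told apart. The run lies 1687 bases from the end of 1 of 2 annotated Cxcl2 transcripts and 850 bases from the end of the Cxcl3 transcript. Its place in the other Cxcl2 transcript was not determined. The libraries count transcript ends. For the other pairs the longest shared run was 11 to 23 bases.

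After removal of barcodes with fewer than 800 detected genes, 4888 cells of the CpG ODN library and 1277 cells of the LPS library remained. The LPS cells were sequenced deeper, with a median of 22680 UMIs per cell against 11078, so levels are given as CPM, the UMIs of a gene per 1000000 summed UMIs of a group. Clusters found without the members were named from markers fixed with the design. The epithelial-like class held 3704 CpG ODN and 963 LPS cells and had all 10 epithelial markers in both libraries. The level of free RNA was gauged in barcodes with at least 50% hemoglobin UMIs, 474 and 604 of them, where Cxcl1 stood at 9.05 and 2.41 CPM and Cxcl2, Cxcl3 and Cxcl5 together had 1 UMI in the CpG ODN and 3 UMIs in the LPS library. The libraries shared 5 barcodes, of which 1 was a kept cell.

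Over all kept cells, each of the members stood higher in the LPS library, by a small margin for Cxcl1 and Cxcl2 and by a wide one for Cxcl3 and Cxcl5. Cxcl1 had 5246 UMIs in 1061 CpG ODN cells and 4251 UMIs in 378 LPS cells, which are 74.4 and 114 CPM. Cxcl2 had 4497 UMIs in 363 cells and 3136 UMIs in 184 cells, or 63.7 and 84.4 CPM. These values made Cxcl1 and Cxcl2 the broad members of the group. Cxcl3 had 74 UMIs in 15 CpG ODN cells and 840 UMIs in 13 LPS cells, or 1.05 and 22.6 CPM. Cxcl5 had 538 UMIs in 54 cells and 3231 UMIs in 40 cells, or 7.62 and 87.0 CPM. The CpG ODN/LPS ratio of CPM was 0.650 (0.624 to 0.677) for Cxcl1, 0.755 (0.721 to 0.791) for Cxcl2, 0.0464 (0.0361 to 0.0589) for Cxcl3 and 0.0877 (0.0799 to 0.0961) for Cxcl5. Cxcl3 was thus 21.6-fold and Cxcl5 11.4-fold higher in the LPS library, and these were the 2 of 4 members at or beyond 2-fold, where 4.96% of 15468 measured genes (those with at least 20 UMIs over both libraries in the cells compared) were that much higher in LPS and 3.18% that much higher in CpG ODN.

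**Figure D1:**
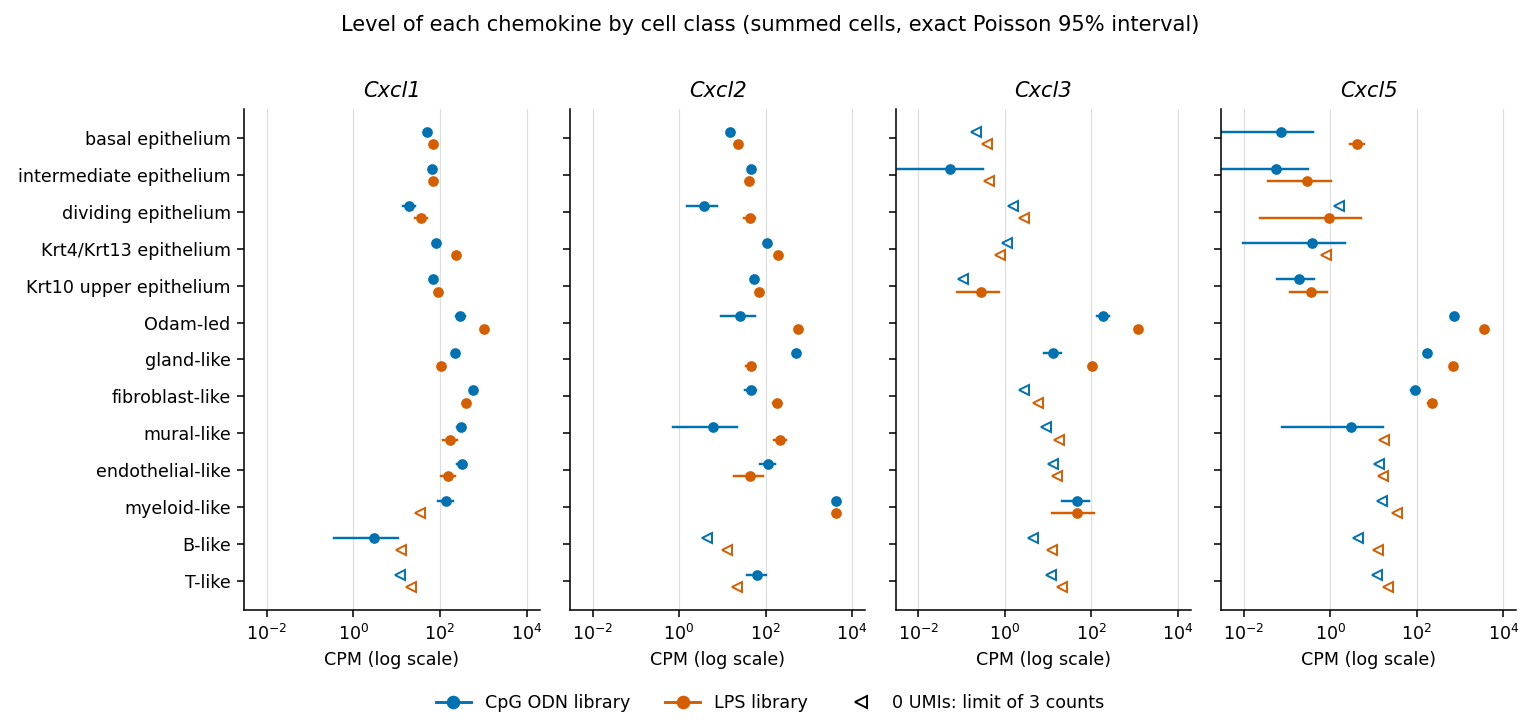
Level of each chemokine in the epithelial layers and the other cell classes, as CPM on a log axis with exact 95% Poisson intervals, for the CpG ODN and the LPS library; open triangles mark 0 UMIs at the limit of 3 counts. Cxcl1 and Cxcl2 appear in most tissue classes, with Cxcl2 highest in the myeloid-like cells at 4212 and 4189 CPM, while Cxcl3 and Cxcl5 are highest in the Odam-led cells.

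The transcripts were not spread evenly over cells. Cxcl3 and Cxcl5 came from a handful of cells. In the LPS library, 2 cells held at least 50% of the Cxcl3 UMIs and 2 cells held at least 50% of the Cxcl5 UMIs. In the CpG ODN library the same share took 4 cells for Cxcl3 and 3 cells for Cxcl5. Cxcl2 needed 35 CpG ODN or 18 LPS cells, and Cxcl1, the most widely expressed member, 146 or 37 cells. The 4 highest cells held 58.1% of the CpG ODN and 95.8% of the LPS UMIs of Cxcl3, and 58.6% and 79.0% of those of Cxcl5. With those cells left out of each library, which was an alternative added after seeing the data, the whole-library ratio of Cxcl3 was 0.465 and that of Cxcl5 was 0.173. The ratios of Cxcl3 and Cxcl5 are therefore ratios between a few cells of each library.

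**Figure D2:**
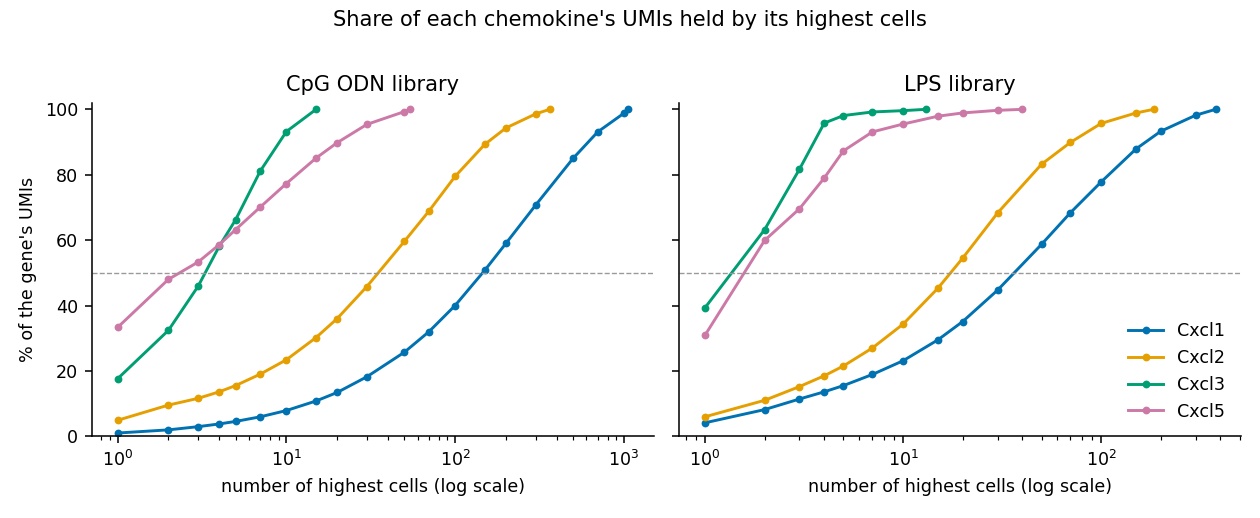
Cumulative share of each chemokine's UMIs (percent, y axis) against the number of cells taken from the highest down (x axis, log scale), for each library. The Cxcl3 and Cxcl5 curves pass 50% within 4 cells in both libraries, whereas Cxcl1 needs 146 CpG ODN or 37 LPS cells.

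The cell classes that supplied the members differed from gene to gene. Epithelial-like cells supplied 75.5% of the CpG ODN and 76.0% of the LPS UMIs of Cxcl1, from 75.8% and 75.4% of the cells and 90.1% and 90.0% of all UMIs. They also supplied 62.8% and 71.4% of Cxcl2. Fibroblast-like cells gave 12.4% and 4.75% of Cxcl1 from 4.87% and 4.31% of the cells. Myeloid-like cells were only 0.655% and 1.02% of the cells but gave 17.9% and 11.6% of the Cxcl2 UMIs. Cxcl3 came mainly from Odam-led cells, with 59.5% and 80.6%, and from gland-like cells, with 27.0% and 18.5%. Cxcl5 had the same 2 main sources, with 31.4% and 64.2% from Odam-led and 48.5% and 31.1% from gland-like cells, plus 18.4% and 3.47% from fibroblast-like cells.

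In the keratinocytes, Cxcl1 and Cxcl2 were the main members expressed, and both were higher in the LPS library. Summed by layer, both were also higher in the Krt10 cells and in the Krt4 and Krt13 cells than in the basal cells. In epithelial-like cells Cxcl1 stood at 62.3 CPM in CpG ODN and 96.6 CPM in LPS, a ratio of 0.644 (0.615 to 0.675). Cxcl2 stood at 44.4 and 67.0 CPM, a ratio of 0.664 (0.628 to 0.702). The intervals exclude 1 for both genes, but each difference was smaller than 2-fold. A Cxcl1 UMI was found in 22.7% of CpG ODN and 31.0% of LPS epithelial-like cells, and a Cxcl2 UMI in 7.34% and 14.5%. After thinning every cell to 1500 UMIs these shares were 6.23% and 7.95% for Cxcl1 and 2.86% and 4.15% for Cxcl2. For comparison, 0.704% of CpG ODN B-like cells, at a median of 2149.5 UMIs, had a Cxcl1 UMI and none of the 69 LPS B-like cells did, which allows up to 12.7 CPM there.

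Cxcl3 and Cxcl5 had few UMIs in epithelial-like cells, and whether these were free RNA was not tested. Cxcl3 had 1 CpG ODN and 4 LPS UMIs. Cxcl5 had 8 and 40 UMIs, or 0.126 and 1.20 CPM, against at most 6.79 and a measured 0.804 CPM in the hemoglobin barcodes, and 30 of the LPS UMIs were in a single basal cell. The Cxcl5 ratio there was 0.105, and 0.315 without the highest cell of each library. Cxcl5 was the 1 of 3 measured members that was at least 2-fold higher in LPS in this class, against 2.68% of 13668 genes, and none was that much higher in CpG ODN, against 1.91%.

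By epithelial layer, Cxcl1 ran from the dividing cells, at 19.7 CPM in CpG ODN and 36.6 CPM in LPS, through the basal cells, at 49.3 and 70.8 CPM, to the Krt10 cells of the upper layers, at 67.7 and 91.8 CPM. The cluster marked by Krt4 and Krt13, keratins of the lining epithelium, stood at 80.6 and 234 CPM. Cells between the basal and the upper layers stood at 65.9 and 67.9 CPM. The intervals of the basal and the intermediate cells overlapped in LPS, and in CpG ODN the interval of the Krt10 cells overlapped those of the intermediate and of the Krt4 and Krt13 cells. In CpG ODN, Cxcl2 stood at 3.72 CPM in dividing, 15.4 in basal, 45.9 in intermediate, 54.9 in Krt10 and 109 CPM in Krt4 and Krt13 cells. In LPS it stood at 43.9, 23.1, 40.3, 70.7 and 195 CPM in the same layers, so the order differed in the dividing cells, whose interval overlapped that of the intermediate cells. Single clusters within the layers varied more: in CpG ODN, cluster 3 of the intermediate layer held 137 CPM of Cxcl1, above the Krt4 and Krt13 cluster. Cluster 16 of the Krt10 layer held only 0.927 CPM of Cxcl2 in CpG ODN and 1.85 CPM in LPS, below the basal layer. The layers above the basal one exceeded it 1.40-fold (1.28 to 1.53) in CpG ODN and 1.73-fold (1.57 to 1.90) in LPS for Cxcl1. For Cxcl2 the same contrast was 3.86-fold (3.35 to 4.47) and 4.21-fold (3.60 to 4.94).

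The ligand difference was not the same in each layer. Among the layers it was widest for Cxcl1 in the Krt4 and Krt13 cells, with a ratio of 0.344 (0.295 to 0.400), though cluster 16 of the Krt10 layer gave 0.329 (0.251 to 0.427). It was within counting error in the intermediate cells, with 0.970 (0.871 to 1.08). For Cxcl2 the intermediate cells gave 1.14 (0.992 to 1.31) and the dividing cells 0.0847 (0.0323 to 0.188), the latter from 7 CpG ODN and 48 LPS UMIs. Among the 13 epithelial clusters with at least 20 cells in each library, LPS was higher in 10 for Cxcl1 and in 10 for Cxcl2.

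The Odam-led cells, 16 in each library, held the most Cxcl3 and Cxcl5 per UMI of any class, and all 4 members were higher there in LPS. These cells had all 10 epithelial markers in both libraries, Krt14 in 16 of 16 cells, and no UMI of Tyrobp, an adaptor of myeloid cells. Of the 10 neutrophil markers, 3 were detected in CpG ODN and 4 in LPS, summing to 5464 and 25501 CPM. Nearly all of this was S100a8 and S100a9. A UMI of the neutrophil markers Csf3r, Cxcr2 or Retnlg was found in 0 CpG ODN and 1 LPS cell. The LPS cells were deeper, with a median of 35534 UMIs against 11264, and held more Odam, with a median of 62.5 against 15.7 UMIs per 10000.

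Cxcl5, the neutrophil attractant best known from epithelia, had 169 UMIs in 10 CpG ODN and 2074 UMIs in 13 LPS cells of this cluster. Its median was 2 UMIs per cell in CpG ODN and 16.5 in LPS, and its highest cells had 79 and 937 UMIs. The ranges of the libraries overlapped, since both included cells with 0. The summed level was 718 and 3633 CPM, 5.06-fold higher in LPS, with a ratio of 0.198 (0.168 to 0.231). Cxcl3 had 44 UMIs in 6 cells and 677 UMIs in 8 cells, with medians of 0 and 0.5 and highest cells of 13 and 330 UMIs. Its levels of 187 and 1186 CPM were 6.34-fold apart, with a ratio of 0.158 (0.113 to 0.214). This ratio rested on single cells: without the 4 highest cells of each library it was 1.09.

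Cxcl1 in the Odam-led cells had 70 UMIs in 13 cells and 598 UMIs in 14 cells, or 297 (232 to 376) and 1048 CPM (965 to 1135). The ratio was 0.284 (0.218 to 0.364). Cxcl2 was the member with the widest gap, with 6 UMIs in 3 CpG ODN cells and 324 UMIs in 10 LPS cells, or 25.5 and 568 CPM. Its ratio was 0.0449 (0.0164 to 0.0988), a 22.3-fold difference. After thinning, a Cxcl2 UMI was in 3.44% of CpG ODN and 33.3% of LPS cells, while Cxcl1 was in 30.9% and 43.6%, Cxcl3 in 21.2% and 24.4% and Cxcl5 in 39.3% and 52.6%. All 4 members together were found in 2 CpG ODN and 7 LPS cells. Thus 4 of 4 members were at least 2-fold higher in LPS and 0 in CpG ODN, where 6.46% and 5.43% of 4087 measured genes were.

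**Figure D3:**
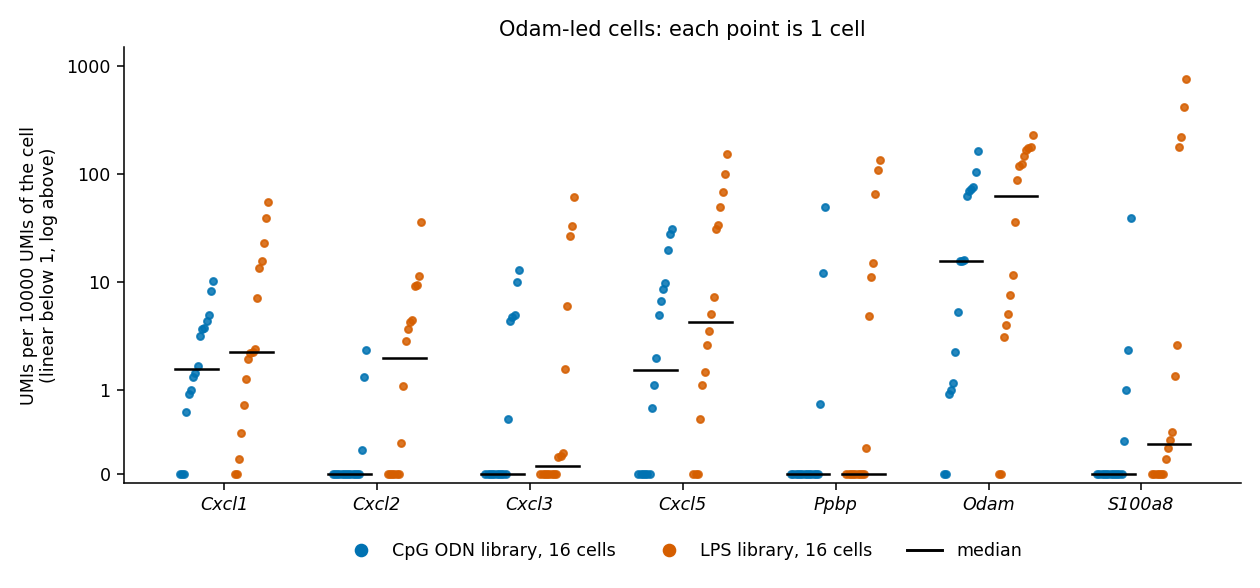
UMIs of the chemokines, Ppbp, Odam and S100a8 per 10000 UMIs of the cell in each of the 16 Odam-led cells per library; each point is 1 cell, the bar is the median, and the y axis is linear below 1 and log above. Cxcl5 reaches 154 per 10000 in the highest LPS cell and 31.2 in the highest CpG ODN cell, and Cxcl2 is at 0 in 13 of the 16 CpG ODN cells.

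Ppbp and the neutrophil-recruiting partner genes were also higher in the LPS Odam-led cells. Ppbp, the Cxcr2 ligand encoded between Cxcl5 and Cxcl3, had 182 UMIs in 3 CpG ODN cells and 1702 UMIs in 7 LPS cells, or 773 and 2981 CPM, while Pf4 of the same locus had 0 and 1 UMI and Cxcl15 had none. Cxcl5 was found in 2 of those 3 and 7 of those 7 cells. S100a8 and S100a9, the subunits of calprotectin, stood at 608 and 4852 CPM in CpG ODN and at 13598 and 11899 CPM in LPS. Lcn2, an iron-withholding protein, stood at 272 and 977 CPM. Few cells carried these: of the LPS UMIs, 1 cell held 467 of 558 of Lcn2, and the 2 highest cells held 3396 and 2573 of 7763 of S100a8. Csf3, which releases neutrophils from marrow and was singled out after its values were seen, had 0 UMIs in CpG ODN and 40 UMIs in 4 LPS cells. Of 18 immediate early genes that tissue dissociation is known to induce, 10 were at least 2-fold higher in LPS Odam-led cells and 0 in CpG ODN. Of all 4087 measured genes there, 6.46% and 5.43% were. The dissociation list summed to 5102 and 9188 CPM. Its part in the chemokine difference was not tested.

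In the gland-like cells, 117 in CpG ODN and 66 in LPS, Cxcl1 and Cxcl2 were higher in CpG ODN. Cxcl1 stood at 219 and 105 CPM, a ratio of 2.08 (1.72 to 2.53), and Cxcl2 at 494 and 45.8 CPM, a ratio of 10.8 (8.42 to 14). Cxcl3 and Cxcl5 were higher in LPS, at 13.2 and 103 CPM and at 172 and 667 CPM. That direction came from 1 LPS cell, which held 155 of the 155 Cxcl3 UMIs and 998 of the 1005 Cxcl5 UMIs, with 59 UMIs of Ppbp. Without the highest cell of each library the ratio of Cxcl5 was 11.6. That of Cxcl3 was 4.62, with the LPS cells, which had no UMI left, set to a floor of 3 UMIs. The CpG ODN gland-like cell with the most Cxcl5 had 179 UMIs of it, with 209 of Cxcl2, 6 of Cxcl3 and 448 of Ppbp, whereas the LPS cell had 0 of Cxcl2.

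The gland-like class was not the same mixture in the libraries. Its gland markers summed to 23663 CPM in CpG ODN and 43973 CPM in LPS, and its epithelial markers to 16099 and 6061 CPM. Its main cluster, led by Wfdc18, divided at a finer clustering into a part with Krt14 (90 CpG ODN and 16 LPS cells) and a part led by Wfdc18 (15 and 36 cells). The Cxcl2 ratio was 3.30 in the first and 37.5 in the second, and that of Cxcl1 was 1.51 and 3.21, so both genes were higher in CpG ODN in each part. By the class as a whole, 2 of 4 members were at least 2-fold higher in LPS and 2 in CpG ODN, where 6.59% and 7.04% of 9192 genes were.

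Fibroblast-like cells, 238 and 55 of them, were a further source of Cxcl1, though 4 LPS cells held 78, 32, 25 and 13 of its 202 UMIs there. All 10 fibroblast markers were detected in both libraries. Mural markers summed to 291 and 1081 CPM and epithelial markers to 4637 and 2462 CPM. Their part in the ratios of this class was not tested. Cxcl1 had 649 CpG ODN and 202 LPS UMIs, or 593 CPM (548 to 640.3) and 401 CPM (348 to 461), and was found in 37.0% and 30.9% of the cells (25.6% and 17.1% after thinning). The ratio was 1.48 (1.26 to 1.74), in the opposite direction to the keratinocytes, and was 2.19 without the highest cell and 3.80 without the 4 highest cells of each library. Cxcl5 had 99 and 112 UMIs, or 90.4 and 223 CPM, a ratio of 0.406 (0.307 to 0.537), and 0.678 without the 4 highest cells. Cxcl3 had no UMI in this class, which allows up to 2.74 CPM in CpG ODN and 5.96 CPM in LPS.

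Cxcl2 in the fibroblast-like cells stood at 44.8 and 183 CPM, but 74 of the 92 LPS UMIs were in 1 cell. That cell held 122 UMIs of Col1a1 together with 156 of S100a8, 127 of S100a9 and 17 of Il1b, and 7 of 12 neutrophil-defining genes. Without the highest cell of each library the Cxcl2 ratio was 1.02 in place of 0.245. Of 3 measured members, 2 were at least 2-fold higher in LPS and 0 in CpG ODN, where 3.66% and 4.87% of 7821 genes were.

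Vessel cells had less Cxcl1 than the fibroblast-like cells of the same library, and more of it in CpG ODN than in LPS. In 49 and 24 endothelial-like cells Cxcl1 stood at 319.6 and 155 CPM, a ratio of 2.06 (1.32 to 3.32), and 2.23 without the highest cell of each library. Cxcl2 stood at 115 and 44.3 CPM, a ratio of 2.61 (1.15 to 6.66), but 21 of its 26 CpG ODN UMIs were in 1 cell, and the ratio was 0.927 without the highest cell of each library. Mural markers summed to 359.6 CPM in the CpG ODN and 2889 CPM in the LPS endothelial-like cells, and their part in these ratios was not tested. In 65 and 16 mural-like cells Cxcl1 stood at 307 and 172 CPM, a ratio of 1.78 (1.17 to 2.80). Of the 29 LPS UMIs, 21 were in 1 cell, and the ratio was 4.95 without the highest cell of each library. Cxcl2 was at 6.07 CPM in the CpG ODN mural-like cells, and its 37 LPS UMIs, or 219 CPM, all came from that same cell. Cxcl3 had no UMI in endothelial-like or mural-like cells, and neither did Cxcl5 in endothelial-like cells, which allows up to 13.3 and 16.6 CPM in the endothelial-like cells of CpG ODN and LPS.

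**Figure D4:**
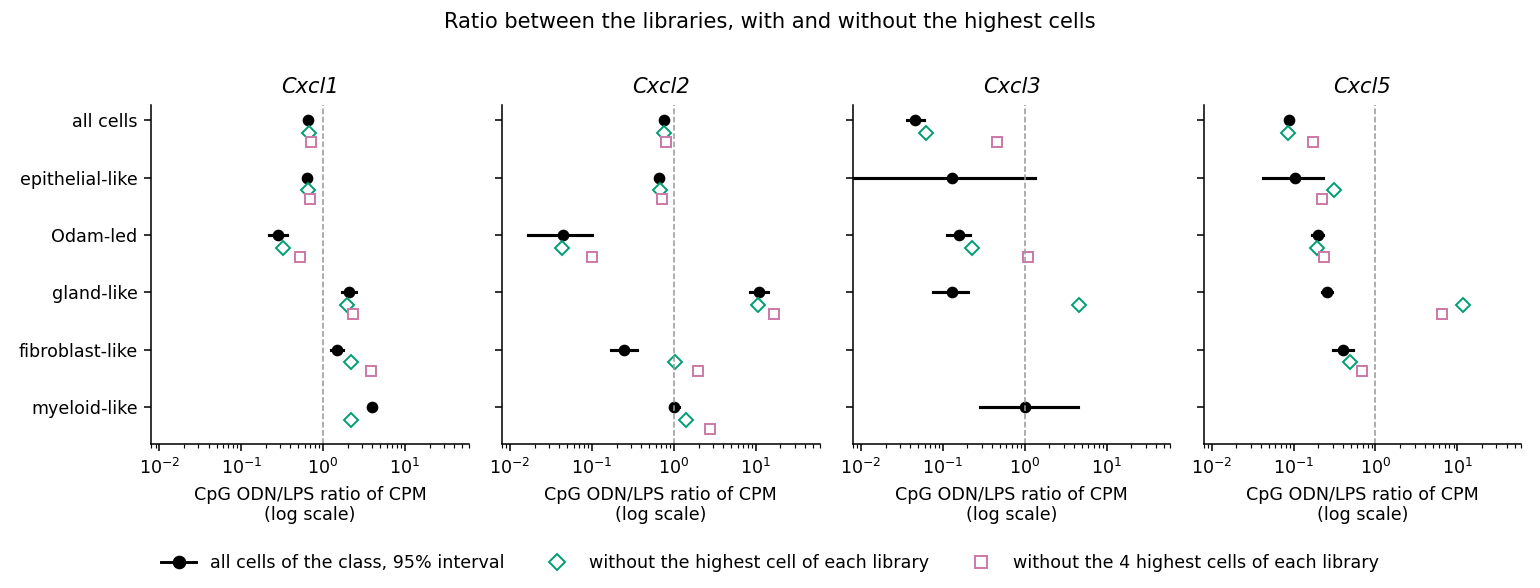
CpG ODN/LPS ratio of each chemokine's CPM in the whole libraries and in 5 cell classes (log axis, 95% interval, the dashed line at 1), with open marks for the ratio without the highest 1 or 4 cells of each library. A gene with no UMI on 1 side was set to a floor of 3 UMIs. Cxcl1 is at 0.644 in epithelial-like and 0.284 in Odam-led cells, and at 1.48 in fibroblast-like and 2.08 in gland-like cells.

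Myeloid-like cells, only 32 and 13, had the highest Cxcl2 level of any class and little of the other members. Cxcl2 had 805 UMIs in 21 of 32 CpG ODN cells and 363 UMIs in 9 of 13 LPS cells, or 4212 CPM (3926 to 4513) and 4189 CPM (3769 to 4643). The ratio was 1.01 (0.887 to 1.14), 1.39 without the highest cell of each library and 2.77 without the 4 highest. Cxcl1 had 26 and 0 UMIs. With the LPS count set to a floor of 3 UMIs the ratio was 3.93, with a lower interval limit of 2.97. At the coarser clustering the Cxcl1 ratio was 1.21. Epithelial markers summed to 4495 and 346 CPM and fibroblast markers to 1135 and 0 CPM in these cells, and their part in the Cxcl1 difference was not tested. Cxcl3 had 9 and 4 UMIs, and Cxcl5 had none in either library, which allows up to 15.7 and 34.6 CPM. Of 2 measured members, 1 (Cxcl1) was at least 2-fold higher in CpG ODN and 0 in LPS, where 12.4% and 11.3% of 2041 genes were.

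The libraries differed in which myeloid-like cells they held. Cells with at least 5 UMIs of the C1q genes, which mark macrophages, numbered 22 in CpG ODN and 3 in LPS, and cells with at least 3 of 12 neutrophil-defining genes numbered 1 and 5. These cuts were set after seeing the data, and 1 and 3 cells lay next to them. All 26 Cxcl1 UMIs were in the C1q cells of CpG ODN, where the ratio against the floor was 1.95. Cxcl2 in the C1q cells had 784 UMIs in 18 CpG ODN cells, or 6149 CPM, and 187 UMIs in 1 LPS cell, or 6529 CPM. In the neutrophil-gene cells it had no UMI in the 1 CpG ODN cell and 104 UMIs in 5 of 5 LPS cells, or 8105 CPM. The remaining 9 and 5 cells had 21 and 72 UMIs. Neutrophils are small and poor in RNA, and barcodes with fewer than 800 genes and at least 3 of the neutrophil-defining genes numbered 4 in each library. Cxcl2 in those had 66 and 85 UMIs, or 12744 and 17461 CPM. These summed levels were above that of any kept class but rest on few barcodes. In CpG ODN 1 barcode held 45 of the 66 UMIs, and in LPS 2 barcodes held 43 and 32 of the 85.

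Cxcl1 and Cxcl2 were found in the same keratinocytes. Of epithelial-like cells with a Cxcl2 UMI, 71.7% in CpG ODN (195 of 272) and 77.9% in LPS (109 of 140) also had Cxcl1, against 18.8% and 23.1% of cells without Cxcl2. With every cell thinned to 1500 UMIs the same shares were 36.4% and 42.3% against 5.34% and 6.46%. Seen from Cxcl1, 23.2% and 36.5% of the positive cells had Cxcl2, against 2.69% and 4.67% of the others. In fibroblast-like cells 13 of 14 and 5 of 6 Cxcl2 cells had Cxcl1. In Odam-led cells 6 of 6 and 8 of 8 Cxcl3 cells had Cxcl5, against 40.0% and 62.5% of the cells without Cxcl3. Other pairs shared cells too: 7 of 7 Cxcl3 cells of the CpG ODN gland-like class and 7 of 8 Cxcl3 cells of the LPS Odam-led cluster had Cxcl2.

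A small set of keratinocytes carried most of the chemokine transcripts. Epithelial-like cells with at least 5 UMIs of the 4 members and at least 5 per 10000 numbered 173 of 3704 (4.67%) in CpG ODN and 67 of 963 (6.96%) in LPS, and held 64.5% and 71.0% of the member UMIs of the class, a share that the choice of the highest cells makes large. They were deeper, which the minimum of 5 UMIs itself favours, than the other epithelial-like cells, with medians of 19318 against 12918 UMIs and 40476 against 26334 UMIs. Their mitochondrial share was lower, at 3.58% against 4.70% and 4.09% against 5.29%. For each other gene, the UMIs observed in these cells were set against those expected had they held the gene at the level of the other cells of their own cluster and library. The observed/expected folds that follow are a description with no test.

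The genes that were highest in the chemokine-high keratinocytes of both libraries included further chemokines and genes of the NF-kB response. Ccl20, which attracts Ccr6 cells, was 3.83-fold higher in CpG ODN (736 UMIs observed against 192 expected) and 4.40-fold higher in LPS (1363 against 309.8). Ccl2, a monocyte attractant, was 4.84-fold and 3.35-fold higher. Ch25h, which makes an oxysterol, was 3.25-fold and 4.45-fold higher, and Icam1, an adhesion molecule for leukocytes, 3.09-fold and 2.38-fold. Irf1, a transcription factor, was 2.60-fold and 2.06-fold higher and the GTPase gene Gem 2.12-fold and 3.10-fold. These 6 were the only genes at or above 2-fold in both libraries, which is 0.0917% of the 6544 genes with at least 30 UMIs in such cells of each library. Tnfaip3, the NF-kB inhibitor A20, was 3.99-fold and 1.94-fold higher, Ier3 2.32-fold and 1.98-fold, Sox9 2.02-fold and 1.93-fold, and Bbc3 1.88-fold and 1.99-fold.

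**Figure D5:**
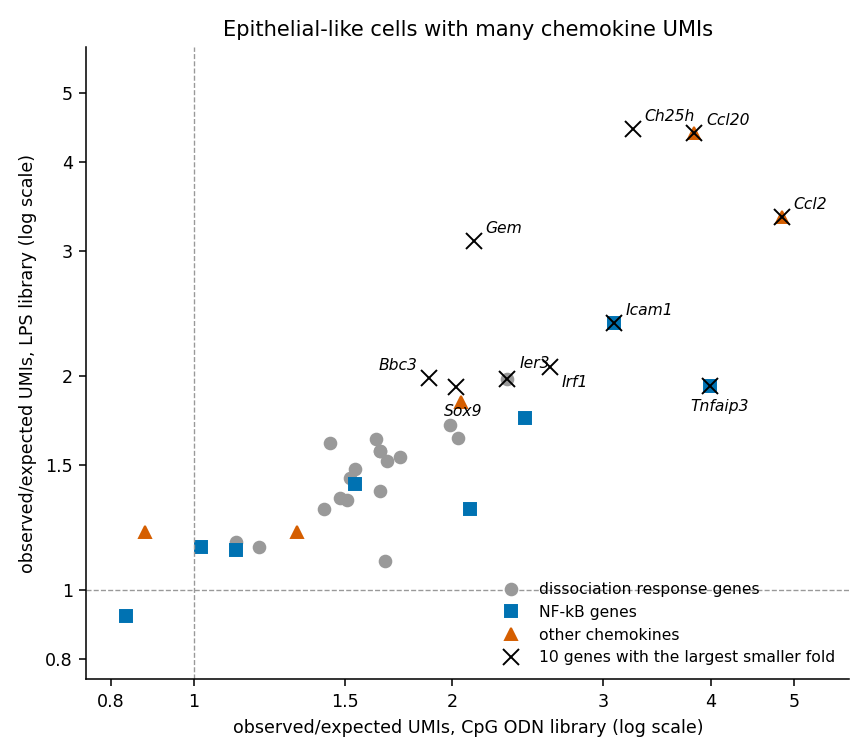
Observed/expected UMIs in the chemokine-high epithelial-like cells, CpG ODN library (x axis) against LPS library (y axis), both on log axes; each point is a gene of the dissociation-response, NF-kB or other-chemokine list, and crosses mark the 10 named genes. Ch25h, Ccl20 and Ccl2 lie highest in the LPS library, and Ccl2, Tnfaip3 and Ccl20 in the CpG ODN library. The 18 dissociation-response genes lie above 1 on both axes.

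The dissociation-response genes went with the chemokine-high cells as well. All 18 listed genes were above 1 in both libraries, at 1.12 to 2.32-fold in CpG ODN and 1.10 to 1.98-fold in LPS, with medians of 1.64 and 1.50, whereas 21.6% of the 6544 measured genes were above 1 in both. For NF-kB response genes the medians of 8 genes were 1.82 and 1.35, and for 5 other chemokines 2.05 and 1.84. Genes of message decay stood at medians of 1.31 and 1.14 over 6 genes, and genes of the inducing signals at 1.02 and 1.07 over 5 genes. No leukocyte gene of the list reached the 30 UMIs required. Between the ligands the dissociation list in epithelial-like cells summed to 9861 CPM in CpG ODN and 9992 CPM in LPS, with 0 of 18 genes at or beyond 2-fold. Its part in the chemokine levels was not tested.

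Levels across clusters were compared as well. Over 36 points, the 18 clusters with at least 20 cells in each library taken in both, log2(CPM + 10) of Cxcl1 and Cxcl2 had a Pearson correlation of 0.73 and that of Cxcl3 and Cxcl5 0.77, while the other pairs had 0.13 to 0.42. The points of a library share its depth, and the Odam-led cells are too few to be among them. The genes most like Cxcl1 were Egr1 (0.89), Fos (0.87), Ier3 (0.87), Fbxo30 (0.86) and Ndrg1 (0.85). Those most like Cxcl2 were Bhlhe40 (0.74), Tiparp (0.73), Klf6 (0.69), Atf3 (0.68) and Pnp (0.68). For Cxcl3 they were Lrrc26 (1.00), Tspan1 (1.00), Muc1 (0.97), Tnip3 (0.97) and Dmbt1 (0.96), and for Cxcl5 Nkd2 (0.94), Aldh1a1 (0.92), Clmn (0.91), Sgms2 (0.91) and Ifitm1 (0.90). Among these points Cxcl3 stood above 1.11 CPM only in the cluster led by Wfdc18, at 16.1 CPM in CpG ODN and 137 CPM in LPS. Its list and its correlation with Cxcl5 therefore rest on 2 points, of which the LPS one is a single cell. That cell also held 998 of the 1005 Cxcl5 UMIs of the highest Cxcl5 point, at 887 CPM.

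The receptors and inducers of the members were measured in the same cells. Cxcr2, the receptor of all 4, had 14 UMIs in CpG ODN and 22 in LPS over all kept cells, of which 2 and 10 were in myeloid-like cells. The syndecans Sdc1 and Sdc4, which hold chemokines at the cell surface, stood at 349.5 and 367 CPM and at 284 and 319 CPM in epithelial-like cells, and 0 of 3 measured receptor and binding genes were 2-fold apart. Of 13668 genes in epithelial-like cells, 2.68% were at least 2-fold higher in LPS and 1.91% in CpG ODN. Of 14 measured genes of the inducing signals, 3 and 0 were. The receptor genes Il17rc, at 75.3 and 78.0 CPM, and Tnfrsf1a, at 48.1 and 56.7 CPM, were not among them, while Il36a, a cytokine of the Il1 family, was, at 20.5 and 88.4 CPM.

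Of 12 measured NF-kB response genes in epithelial-like cells, 2 were at least 2-fold higher in LPS and 0 in CpG ODN. The shares over all genes of the class were 2.68% and 1.91%. Neither Nfkbia, which encodes the inhibitor IkBa, at 307 and 418 CPM, nor Sod2, at 145 and 155 CPM, was among the 2. In the Odam-led cells, 3 of 8 measured NF-kB response genes were at least 2-fold higher in LPS: Nfkbia (ratio 0.344), Nfkbiz (0.359) and Tnfaip2 (0.269). The share over all genes of that class was 6.46%. Of 6 measured message-decay genes in epithelial-like cells, none was 2-fold apart. Of 12 measured other chemokines in epithelial-like cells, 0 were at least 2-fold higher in LPS and 4 in CpG ODN, and the most abundant were Cxcl14, at 82.2 and 67.3 CPM, and Ccl20, at 50.1 and 92.6 CPM. Il1b in myeloid-like cells stood at 617 CPM in CpG ODN and 3243 CPM in LPS. In LPS, 1 C1q cell held 129 of the 281 UMIs and the 5 neutrophil-gene cells held most of the others. In CpG ODN, the 1 neutrophil-gene cell held 4 of the 118 UMIs. In the myeloid-like cells the dissociation list summed to 27517 and 12798 CPM, and its part in their Cxcl2 level was not tested. A set of 8 leukocyte genes in epithelial-like cells summed to 14.4 CPM in CpG ODN and 2.36 CPM in LPS, and leaving out cells with UMIs of 2 or more of them moved none of the epithelial-like ratios beyond their intervals.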

How the data were processed

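Each of the 2 libraries held pooled gingival cells of 4 mice, 1 library per ligand, read by the Chromium transcript-end chemistry. The authors deposited UMI counts per gene and barcode, unnormalized, made with Cell Ranger 4.0.0 per the file headers. The study names Seurat for its own clustering, whose labels were not used here. The aligned genome build is not given in the sources used here, and coordinates were matched by gene ID to GENCODE M21 on GRCm38. The deposited matrices held 6219 and 2016 barcodes with 72173148 and 38656738 UMIs.

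Barcodes with fewer than 800 detected genes were removed, as in the study, which left out 1331 and 739. Kept cells of both libraries were clustered together in scanpy 1.11.5 (2000 variable genes, 30 components, 15 neighbours, Leiden resolution 1, leidenalg 0.10.2), with 103 genes, the members and most listed genes, held out. Clusters were named from fixed markers, so classes may differ from those of the study. Scrublet called 17 (0.348%) and 3 (0.235%) cells, too few to have worked, and doublets were kept. Levels are CPM of summed cells with exact Poisson intervals, ratios have exact conditional 95% intervals, and shares of cells were also computed after thinning to 1500 UMIs. Molecular counts of 1 cell are not independent of each other, so intervals understate the error. Calculations used Python 3.11.15, numpy 2.4.6, scipy 1.17.1, pandas 2.3.3 and matplotlib 3.10.9, and were checked on simulated data.

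The members, the gene lists and the alternatives were chosen with earlier results of these data known. Of listed genes, values are given for at most the 3 highest per list with at least 20 UMIs in the class. The 5 genes most like each member (at least 200 UMIs) and the 10 genes with the highest smaller fold in chemokine-high cells (at least 30 UMIs in each library) were named by rank. Genes that describe 1 single cell or barcode type were chosen after their values were seen. Of the listed genes, 1 was not found in the matrices, and Il36a is listed there under its older symbol. Alternatives were the resolution, the gene minimum, the mitochondrial limit, the weighting of cells, separate clustering and leaving out single cells.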

Additional observations from a re-analysis of the deposited data

Results flagged for a closer look

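Cxcl1 and Cxcl2 had CpG ODN/LPS ratios whose counting intervals lay on opposite sides of 1 in different cell classes. The difference between classes was not tested, since each ligand has 1 library. For Cxcl1 the ratio was 2.06 in endothelial-like, 1.48 in fibroblast-like, 2.08 in gland-like and 1.78 in mural-like cells, against 0.284 in Odam-led and 0.644 in epithelial-like cells. For Cxcl2 it was 2.61 in endothelial-like and 10.8 in gland-like cells, against 0.0449 in Odam-led, 0.664 in epithelial-like, 0.245 in fibroblast-like and 0.0277 in mural-like cells. The fibroblast-like value of Cxcl2 comes from 1 LPS cell, without which it was 1.02, and the 37 LPS mural-like UMIs of Cxcl2 are also those of 1 cell. Without the highest cell of each library the endothelial-like ratio of Cxcl2 was 0.927 and the mural-like ratio of Cxcl1 was 4.95.

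Cxcl2 was also found in barcodes left out of the comparisons for having fewer than 800 detected genes. Those with at least 3 of 12 neutrophil-defining genes, 4 in each library, held 66 Cxcl2 UMIs in CpG ODN and 85 in LPS, above the limit that a count of 0 allows.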

How the results depend on the processing

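No paired analysis was possible because the design has only 1 library for CpG ODN and 1 for LPS, which also leaves no library to omit. Over all alternatives, 172 CpG ODN/LPS ratios stayed within the interval of the reported value, 61 moved outside it and 8 changed direction. The following values are those that moved or changed direction, and the cause was not tested. Leaving out the 4 highest cells, holding clusters fixed, the parts of the Wfdc18 cluster and leaving out cells with UMIs of 2 or more leukocyte genes were chosen after seeing the data.

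Without the highest cell of each library, Cxcl3 was 0.0629 over all cells, 0.225 in Odam-led and 4.62 in gland-like cells (changed direction). The LPS gland-like cells had no Cxcl3 UMI left, so a floor of 3 UMIs was used, as for Cxcl1 in LPS myeloid-like cells. Cxcl5 was 0.315 in epithelial-like and 11.6 in gland-like cells (changed direction), Cxcl1 2.19 in fibroblast-like and 2.21 in myeloid-like cells, and Cxcl2 1.02 in fibroblast-like (changed direction) and 1.39 in myeloid-like cells. In vessel cells Cxcl2 was 0.927 in endothelial-like (changed direction) and Cxcl1 4.95 in mural-like cells, where Cxcl2 had no UMI left. Without the 4 highest cells the values over all cells were 0.718, 0.795, 0.465 and 0.173 for Cxcl1, Cxcl2, Cxcl3 and Cxcl5. In Odam-led cells they were 0.521, 0.0989, 1.09 (changed direction) and 0.235. No CpG ODN UMI of Cxcl2 was left there, so 0.0989 rests on the floor of 3 UMIs. In epithelial-like cells Cxcl1 was 0.694 and Cxcl2 0.724, in gland-like cells Cxcl2 was 16.5 and Cxcl5 6.44 (changed direction), in fibroblast-like cells Cxcl1 was 3.80, Cxcl2 1.96 (changed direction) and Cxcl5 0.678, and in myeloid-like cells Cxcl2 was 2.77.

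With the mean of per-cell CPM in place of summed cells, the values over all cells were 0.893, 0.625, 0.0697 and 0.121. In epithelial-like cells Cxcl1 was 0.751, in Odam-led cells Cxcl3 was 0.290 and Cxcl5 0.247, in gland-like cells Cxcl1 was 1.62, Cxcl2 6.28 and Cxcl5 0.185, in fibroblast-like cells Cxcl2 was 0.506, and in myeloid-like cells Cxcl2 was 0.792 and Cxcl3 0.244. With clusters held fixed the values over all cells were 0.755, 0.866, 0.154 and 0.228.

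At resolution 0.5 the myeloid-like ratios were 1.21 for Cxcl1 and 0.337 for Cxcl2. At resolution 2, epithelial-like Cxcl2 was 0.728 and Cxcl5 0.398, and the gland-like ratios were 3.07, 26.5, 0.246 and 0.564. In the Krt14 part of the Wfdc18 cluster they were 1.51, 3.30, 0.414 and 3.73 (changed direction), and in the Wfdc18 part 3.21, 37.5, 0.356 and 0.815. The 0.414 of Cxcl3 sets 4 CpG ODN UMIs against a floor of 3, as LPS had no UMI there. With a minimum of 1200 genes, gland-like Cxcl5 was 0.305 and myeloid-like Cxcl2 1.16. With a minimum of 200 genes, epithelial-like Cxcl5 was 0.381, gland-like Cxcl5 0.303, fibroblast-like Cxcl2 0.677, and myeloid-like Cxcl1 2.87 and Cxcl2 0.728. With Odam-led cells limited to those with at least 5 Odam UMIs, Cxcl3 was 0.0829 and Cxcl5 0.143.

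A mitochondrial limit of 20%, removal of Scrublet calls and removal of cells with UMIs of 2 or more leukocyte genes moved none of the ratios they gave. Clustering each library on its own gave no Odam-led cluster in CpG ODN and no gland-like or myeloid-like cluster in LPS, so those classes have no value there, and the 11 ratios it gave did not move. Of shares of cells and UMIs, 63 moved and 257 did not. With free RNA subtracted, 3 of 40 levels moved, to 53.2 CPM for Cxcl1 and 42.2 CPM for Cxcl2 in CpG ODN and 0.392 CPM for Cxcl5 in LPS epithelial-like cells. At this depth a count of 0 allows up to 2.74 and 5.96 CPM of Cxcl3 in fibroblast-like cells and up to 34.6 CPM of Cxcl1 in LPS myeloid-like cells.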
